A study of Mus musculus with 8 samples.

Results

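The chaperonin CCT, also called TRiC, is the cytosolic folding machine for actin, tubulin and a group of other proteins. It is built from the products of 8 genes, Tcp1, Cct2, Cct3, Cct4, Cct5, Cct6a, Cct7 and Cct8, and each subunit takes a fixed place in a ring. A pair of such rings stacks back to back and closes over an unfolded client in a cycle driven by ATP. Prefoldin hands clients over to the ring, and phosducin-like proteins act as co-chaperones. The subunits were chosen by gene symbol, and all 8 were found among the 55414 gene rows of the count table and passed the filter on low counts.

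The cells were iBMDM, an immortalized line of wild-type mouse macrophages. All of them were first given 5 μM disulfiram (DSF, a thiol-reactive drug used against alcohol dependence) or its solvent DMSO for 0.5 h. They then received 1 μg/ml bacterial lipopolysaccharide (LPS, the ligand of the TLR4 receptor complex) or water for 4 h. This gave 4 groups of 2 libraries, called control, DSF, LPS and DSF+LPS, and the study asked whether the drug blocks the TLR4 response. The labels do not say that the samples of a group came from separate cultures, so p-values measure the spread between these samples only, which may be technical.

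Library totals ran from 17822041 to 21694922 counts, and a single subunit had 7917 to 15432 counts in a library. Of 10 macrophage markers, 9 reached 1 CPM (counts scaled to a library of common size) in every library, while 6 neutrophil markers together stayed at or below 0.568 CPM. Of 5 epithelial and endothelial markers, Cdh5 and Pecam1 reached 1 CPM in some library, 1 of them in all, with sums of 1.68 to 3.90 CPM. Of 6 lymphocyte markers only Cd79a did, with sums of 0.189 to 2.76 CPM, highest in DSF+LPS. None of 5 fibroblast markers did, with sums up to 1.43 CPM. Tnf, an inflammatory cytokine, stood at 37.5 ± 0.716 CPM (SD, n = 2) in control, 841 ± 12.0 in LPS and 230 ± 40.2 in DSF+LPS. Hspa1b, the inducible heat shock protein of the Hsp70 family, stood at 16.7 ± 3.70 CPM in control and 9818 ± 1733 in DSF. The marker levels were scaled by plain library totals, and all other CPM values were brought to a common scale with edgeR's TMM factors. In bulk RNA, fewer cells with a transcript and less transcript per cell cannot be told apart.

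The upstream sequences of 5 subunits are shown. Tcp1, Cct6a and Cct8 are included because they fell in DSF+LPS against LPS, and Cct7 because it rose. Cct5 stood at 0.01 there (log2, edgeR adjusted p = 0.911) and is included for a heat shock element-like match. Cct2 also has such a match, before its second start, and is not shown. Each line gives the 250 bases before the annotated start site, 5′ to 3′ on the gene's strand, from RefSeq on GRCm38.p6, and capitals mark a match to the motif described after them.
Tcp1: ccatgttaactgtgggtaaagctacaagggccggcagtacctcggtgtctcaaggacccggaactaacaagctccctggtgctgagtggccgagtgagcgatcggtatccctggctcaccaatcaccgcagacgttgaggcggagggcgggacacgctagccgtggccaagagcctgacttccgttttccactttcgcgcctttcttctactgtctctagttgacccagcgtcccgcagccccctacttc
Cct6a: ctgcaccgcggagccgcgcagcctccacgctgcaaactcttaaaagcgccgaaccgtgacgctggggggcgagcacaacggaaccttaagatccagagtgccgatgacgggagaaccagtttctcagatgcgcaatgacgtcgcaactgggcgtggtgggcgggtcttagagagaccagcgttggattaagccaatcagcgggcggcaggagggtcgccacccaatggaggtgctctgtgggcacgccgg
Cct8: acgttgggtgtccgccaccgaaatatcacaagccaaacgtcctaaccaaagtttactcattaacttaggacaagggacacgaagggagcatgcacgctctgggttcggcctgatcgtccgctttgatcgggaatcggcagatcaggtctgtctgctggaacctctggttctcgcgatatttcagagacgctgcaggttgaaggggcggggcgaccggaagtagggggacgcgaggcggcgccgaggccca
Cct7: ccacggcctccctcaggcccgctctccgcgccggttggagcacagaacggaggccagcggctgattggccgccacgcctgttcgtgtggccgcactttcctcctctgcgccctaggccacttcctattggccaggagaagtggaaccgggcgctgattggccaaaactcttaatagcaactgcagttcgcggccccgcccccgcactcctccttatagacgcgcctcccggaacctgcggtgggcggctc
Cct5: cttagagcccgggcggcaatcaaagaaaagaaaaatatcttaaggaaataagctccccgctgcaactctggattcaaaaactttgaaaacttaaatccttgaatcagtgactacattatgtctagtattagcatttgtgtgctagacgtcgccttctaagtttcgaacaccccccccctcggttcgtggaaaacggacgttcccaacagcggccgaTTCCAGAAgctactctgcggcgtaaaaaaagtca
The stretches lie at chr17:12916079-12916328 for Tcp1, chr5:129787106-129787355 for Cct6a, chr16:87495870-87496119 for Cct8 (minus strand), chr6:85451255-85451504 for Cct7 and chr15:31601847-31602096 for Cct5 (minus strand). Their GC content was 59.2% for Tcp1, 62.8% for Cct6a, 58.0% for Cct8, 66.4% for Cct7 and 45.2% for Cct5, with 14 to 24 CpG pairs in each.

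Heat shock factors bind runs of the unit GAA in alternating orientation, and heat shock genes are known for such runs near their start. Both strands of the 300 bases from 250 before to 50 after each start were searched for 3 such units, TTCNNGAANNTTC, and for 2 units, GAANNTTC or TTCNNGAA, the shorter patterns also counting inside the longer one. The table held a start for 7 of the 8 subunits, with Cct4 not among them. None of these 7 genes had the 3-unit run, against 4 of 18 genes with a start on a list of other heat shock chaperones and 0.662% of 27025 genes with a start (0.603% of 32851 promoters, some genes having several starts). The 4 were Hsph1, Chordc1, Hspd1 and Hspe1, of which Hspd1 and Hspe1 are mitochondrial chaperonin genes that share 1 stretch on opposite strands, so their match is the same. The 2-unit pattern was found in 3 of the 7 genes and 12 of the 18, against 17.0% of all genes with a start (15.1% of promoters). The 3 matches were TTCCAGAA, with its first base 34 bases before the first start of Cct5, GAAGTTTC, 42 bases before the second start of Cct2, and TTCGAGAA, 24 bases past the start of Cct6a. The search was for exact letters. It found no 3-unit run in Hspa1a, Hspa1b, Hspb1, Bag3 or Dnajb1 of the other list, which all rose with DSF. Dnajb1 had no 2-unit match either. The lack of a match therefore does not show that a gene has no heat shock element. These are matches of letters only, and binding was not measured.

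With TMM scaling, LPS raised the mRNA of the whole chaperonin by a small and even amount, but 0 of the 8 calls were kept in every alternative run. All 8 subunits rose against control, in a comparison in which 15.2% of the 16304 genes tested rose. The log2 fold changes ran from 0.19 for Cct5 to 0.29 for Cct3, or 1.14- to 1.22-fold, with a median of 0.24 where the median of all genes was 0.02. In all 8 genes both LPS libraries lay above both control libraries, which held for 34.2% of all genes tested. The summed level of the family was 4441 ± 73.7 CPM (SD, n = 2) in control and 5245 ± 124 in LPS.

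Cct3 was at 535.9 and 530.7 CPM in the control libraries and at 670.2 and 630.8 in the LPS libraries. The groups were far apart, and the rise was 0.29 (log2, SE 0.060, edgeR adjusted p = 0.00208). Cct5 was at 648.6 and 623.9 CPM in control and at 753.2 and 698.0 in LPS. The LPS libraries differed more from each other here, and the rise was 0.19 (log2, SE 0.062, edgeR adjusted p = 0.0317). The other 6 subunits had edgeR adjusted p from 0.00395 for Cct2 to 0.0155 for Cct8. The rise depended on the scaling: with library size alone, which moved the median of all genes from 0.02 to -0.13, the subunits stood at 0.03 to 0.13 and 0 were called. Leaving out 1 library lowered the count to 4 without control 1, 1 without control 2, 3 without LPS 1 and 6 without LPS 2.

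**Figure D1:**
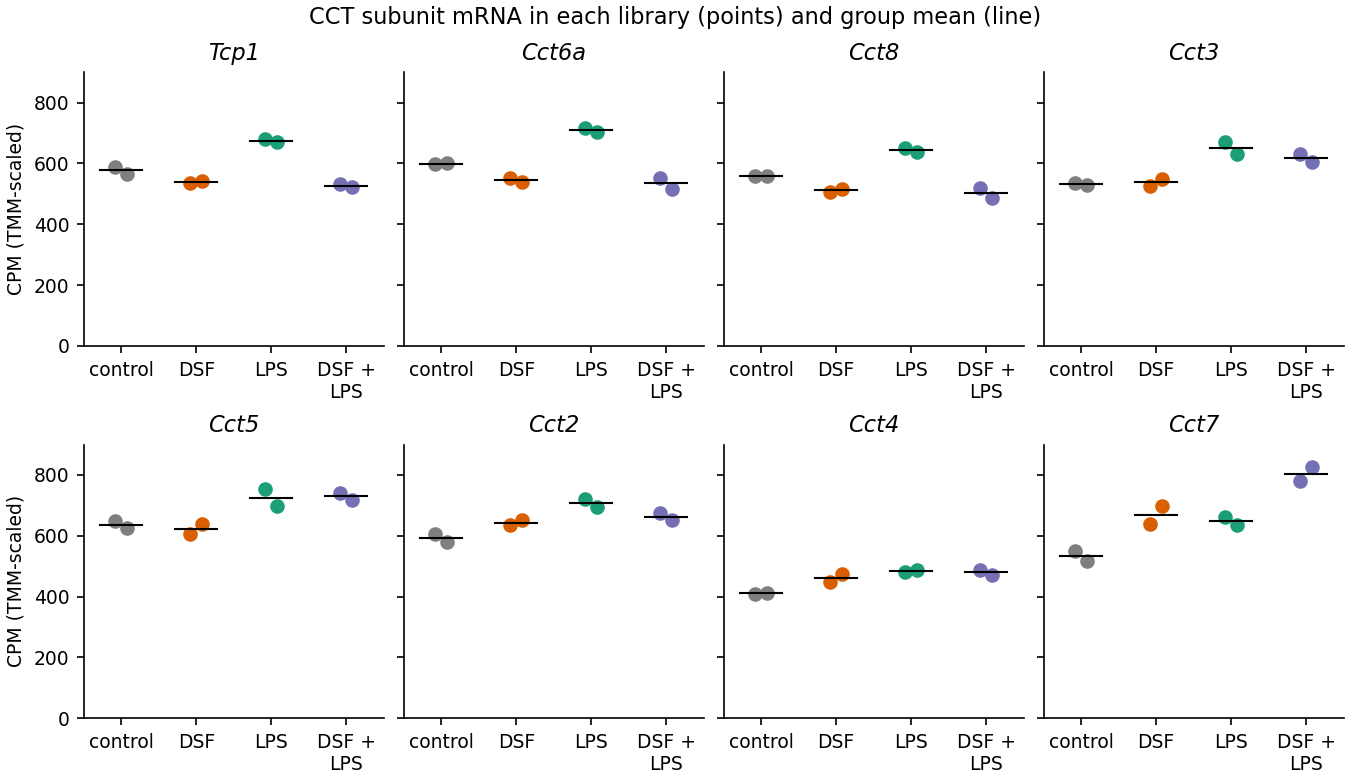
TMM-scaled CPM of the 8 subunits (vertical axis, from 0) in the 4 groups (horizontal axis); each point is 1 library and each line a group mean of 2. Every subunit is higher in LPS than in control, Cct7 is highest in DSF+LPS at 778.7 and 827.4 CPM, and Tcp1, Cct6a and Cct8 are lower in DSF+LPS than in LPS.

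The drug alone left most subunits near their control level and raised Cct7. DSF against control gave 2 subunits that rose, where 31.0% of all genes rose, and none that fell, where 27.1% fell. In edgeR 1 subunit, Cct6a, had an unadjusted p under 0.05 for a fall, and DESeq2 called 0. Cct7 was at 548.6 and 517.7 CPM in control and at 639.1 and 699.2 in DSF. Both DSF libraries lay above both control libraries, and the rise was 0.33 (log2, SE 0.065, edgeR adjusted p = 0.000597), or 1.26-fold. Cct4 was at 409.6 and 411.3 CPM in control and at 446.4 and 473.0 in DSF, a rise of 0.16 (log2, SE 0.060, edgeR adjusted p = 0.0300). The Cct4 call was lost with library size alone, without the filter, and on leaving out any 1 of the 4 libraries, whereas the Cct7 call was kept in each of the 10 alternatives run.

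Of the 6 subunits that were not called with DSF, Cct6a, Cct8 and Tcp1 had the lowest values. Cct6a was at 597.6 and 600.5 CPM in control and at 553.3 and 539.8 in DSF, a difference of -0.13 (log2, edgeR adjusted p = 0.0686). Cct8 differed by -0.13 (edgeR adjusted p = 0.0856) and Tcp1 by -0.10 (edgeR adjusted p = 0.160). In these 3 genes both DSF libraries lay below both controls, as in 38.0% of all genes. With library size alone all 3 were called down, at -0.23, -0.23 and -0.20, and without the filter 2 were. Cct2 stood at 0.12, Cct3 at 0.01 and Cct5 at -0.03, and the median of the 8 was -0.01.

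In cells given LPS, the drug lowered 3 subunits and raised 1. DSF+LPS against LPS called these 3 down, where 31.6% of all genes fell, and the 1 up, where 33.7% rose. Cct6a was at 717.3 and 702.1 CPM in LPS and at 552.1 and 517.4 in DSF+LPS. The groups did not overlap, and the fall was -0.41 (log2, SE 0.059, edgeR adjusted p = 2.74e-05), or to 0.753 of the LPS level. Tcp1 went from 679.5 and 670.4 CPM to 531.2 and 522.1, a change of -0.36 (log2, SE 0.057, edgeR adjusted p = 7.15e-05). Cct8 went from 650.9 and 639.3 CPM to 520.8 and 486.0, a change of -0.36 (log2, SE 0.060, edgeR adjusted p = 0.000105). Tcp1 and Cct6a thus ended below their control levels of 578 ± 15.7 and 599 ± 2.04 CPM (SD, n = 2) in both DSF+LPS libraries, and so did Cct8, at 558 ± 1.06. DSF+LPS was not tested against control, and the share of all genes that lay below control in this way was not counted.

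Cct7 moved the other way. It was at 660.4 and 636.1 CPM in LPS and at 778.7 and 827.4 in DSF+LPS, the highest levels of any subunit in any library. The rise was 0.31 (log2, SE 0.065, edgeR adjusted p = 0.000771), or 1.24-fold. The other 4 subunits were not called: Cct2 stood at -0.09, Cct3 at -0.08, Cct4 at -0.01 and Cct5 at 0.01 on the log2 scale. These 4 calls, 3 down and 1 up, were kept in each of the 10 alternatives run. The share of subunits that fell lay near that of all genes and the share that rose below it, so the counts are no result about the family.

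**Figure D2:**
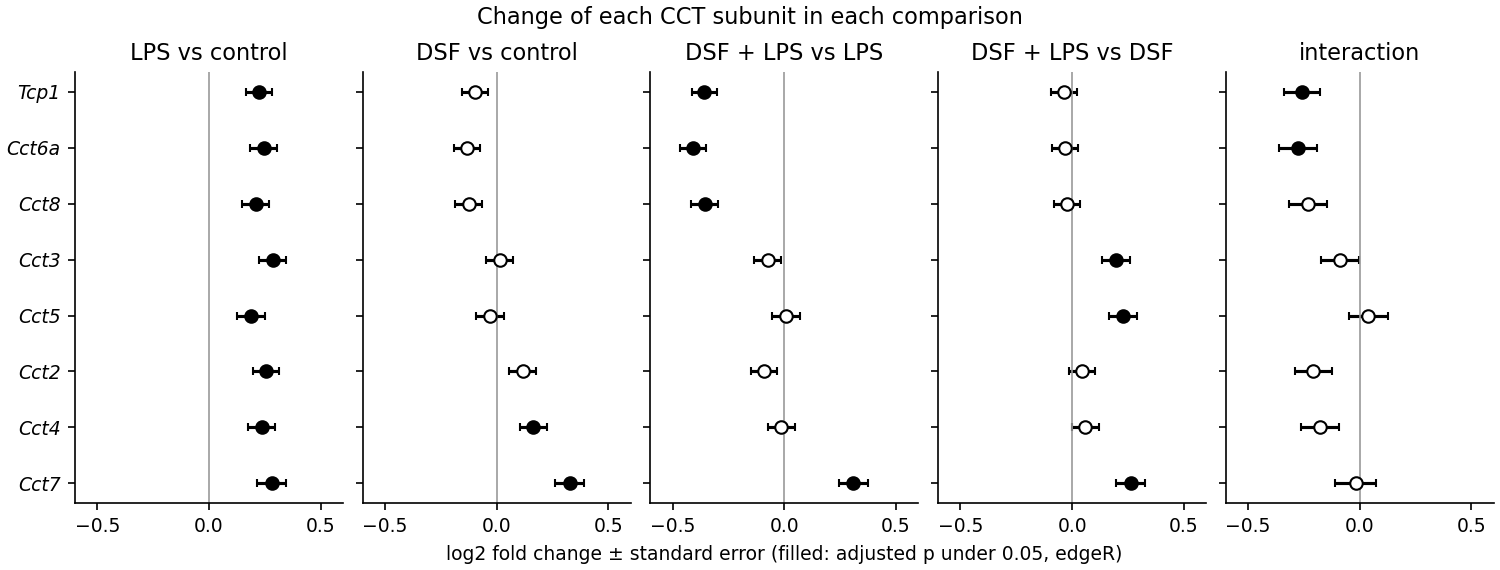
Log2 fold change with its standard error (horizontal axis) of each subunit in the 4 pairwise comparisons and the interaction; filled points have an adjusted p under 0.05 in edgeR. All 8 points are filled and between 0.19 and 0.29 for LPS, while under LPS the drug gives -0.41 for Cct6a and 0.31 for Cct7.

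In cells that had received the drug, LPS raised 3 subunits, where 5.53% of all genes rose in DSF+LPS against DSF. Cct7 rose by 0.26 (log2, SE 0.065, edgeR adjusted p = 0.0185), Cct5 by 0.23 (edgeR adjusted p = 0.0291) and Cct3 by 0.20 (edgeR adjusted p = 0.0481). Cct5 was at 607.3 and 639.9 CPM in DSF and at 741.2 and 718.7 in DSF+LPS, with no overlap. Cct3 was at 527.1 and 550.4 CPM in DSF and at 630.0 and 604.9 in DSF+LPS. Tcp1, Cct6a and Cct8 stood at -0.04, -0.03 and -0.02, within 1 standard error of 0, and Cct2 and Cct4 at 0.04 and 0.06. None fell in edgeR, where 6.53% of all genes did at an adjusted p under 0.05. No subunit fell in DESeq2, or in edgeR at an unadjusted p under 0.05. None of the 3 calls was left with library size alone, with only the DSF and DSF+LPS libraries in the fit, or without DSF 1, and 1 was left without DSF+LPS 1.

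The interaction compares how far LPS moved a gene in drug-treated cells and in cells without it, a negative value meaning a lower response under the drug. Of the subunits 2 were called down, where 12.2% of all genes were, and none up, where 7.58% were; no subunit had an unadjusted p under 0.05 upward, and DESeq2 called 0. Cct6a had an interaction of -0.28 (log2, SE 0.084, edgeR adjusted p = 0.0309) and Tcp1 one of -0.26 (log2, SE 0.081, edgeR adjusted p = 0.0352). Cct8 stood close to them at -0.23 (edgeR adjusted p = 0.0693), Cct2 at -0.21 and Cct4 at -0.18. Cct7 had an interaction of -0.02 (SE 0.092) and Cct5 one of 0.04 (SE 0.088). The Cct6a and Tcp1 calls were lost with RLE size factors (edgeR adjusted p = 0.0547 and 0.0578), with library size alone and without the filter, and without any 1 library other than DSF+LPS 1. The 4 pairwise comparisons share libraries with each other and with the interaction, so these values are not independent of each other.

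Because the subunits assemble in equal number, their levels were also set against the family itself, as the log2 of each subunit over the geometric mean of the 8 in the same library, a measure that no scaling of libraries changes. Cct7 stood at -0.07 to -0.00 in the 4 libraries without the drug, and at 0.21 and 0.29 in DSF and 0.36 and 0.49 in DSF+LPS. Cct8 stood at -0.02 to 0.04 without the drug and at -0.28 to -0.13 with it. Tcp1 stood at 0.04 to 0.08 without the drug and at -0.19 to -0.04 with it. Cct6a stood at 0.10 to 0.14 without the drug and at -0.19 to 0.00 with it. Within the family, Cct2, Cct4 and Cct7 had all 4 drug-treated libraries above the other 4, and Tcp1, Cct6a and Cct8 had all 4 below. On the same measure 29.8% of all genes had the drug-treated libraries above and 20.5% below. Cct3 and Cct5 overlapped. The 8 values of a library sum to 0, so a rise of one subunit lowers the others, and no test was made. LPS alone moved the group means on this measure by -0.05 for Cct5 to 0.05 for Cct3.

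**Figure D3:**
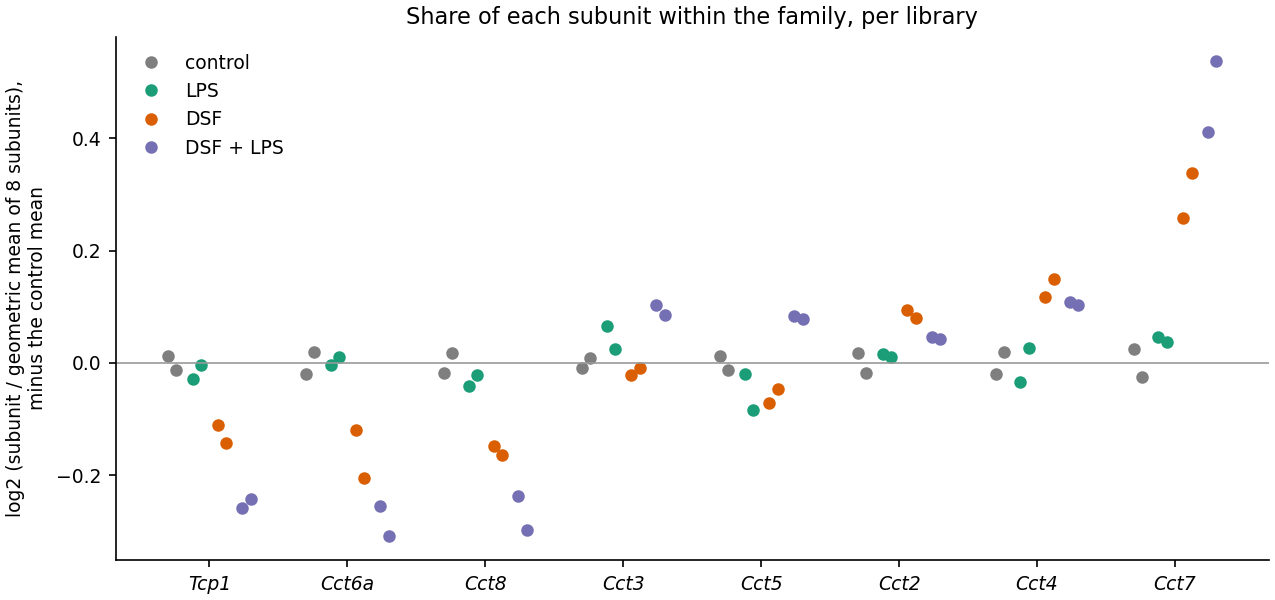
Log2 of each subunit over the geometric mean of the 8 subunits in the same library, minus that subunit's control mean (vertical axis); each point is 1 library. Drug-treated libraries lie above all others for Cct2, Cct4 and Cct7 and below all others for Tcp1, Cct6a and Cct8.

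Over the 8 libraries the log2 levels of Cct6a and Cct8 had a Pearson r of 0.99, Tcp1 and Cct6a one of 0.98, and Tcp1 and Cct8 one of 0.98. The 28 pairs had a median r of 0.51, and the 3 below 0 were Cct7 with Tcp1, Cct6a and Cct8. The pairs share their libraries and their scaling, and r is given as a description. The gene outside the family most like the mean of the 8 subunits was Notch1 (r = 0.99 over 8 libraries, among 9602 genes with a symbol and a mean of at least 5 CPM), followed by Plekhh3, Cxcl10, Slc25a25 and Adgre1, each with r of 0.98 or 0.99. All 5 were highest in LPS. Adgre1, the macrophage surface marker F4/80, was at 84.7 ± 2.91 CPM (SD, n = 2) in control and 160 ± 8.77 in LPS. The r takes no account of the size of a change. Cxcl10 rose 79.2-fold with LPS, where the subunits rose 1.14- to 1.22-fold. Notch1 had group means of 1.56 CPM in control, 2.35 in DSF, 15.1 in LPS and 4.81 in DSF+LPS. Notch1 thus passed the floor of 5 CPM only through LPS, the group in which the summed family level was also highest.

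Per kilobase of merged exons, the control level ran from 232 ± 7.55 CPM per kb (SD, n = 2) for Cct2 and 230 ± 6.31 for Cct5 to 83.7 ± 0.577 for Cct3 and 78.7 ± 3.23 for Cct7. Cct8 was at 181 ± 0.344 CPM per kb, Cct6a at 165 ± 0.563, Tcp1 at 115 ± 3.13 and Cct4 at 97.7 ± 0.293. In control the libraries of Cct2 and Cct5 overlapped, and all other neighbours in this order did not. The highest level was 2.95 times the lowest, but only 1.54 times with coding lengths, which the annotation gave for 7 subunits. Merged exons overstate the length of genes with many annotated retained introns, so the order of levels is tied to the length chosen. Cct7 rose in the order with the drug under each length: with merged exons it was at rank 8 in control and LPS, 7 in DSF and 5 in DSF+LPS, and with coding length at rank 5, 1 and 1 of 7 in control, DSF and DSF+LPS.

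Several subunit genes share sequence with a gene on the other strand, and the handling of strand in the counting is not given in the sources used here, so reads from the shared exons cannot be assigned to one of the genes. Psph, an enzyme of serine synthesis, starts within Cct6a on the opposite strand with 452 bases of shared exon. Psph was at 36.8 ± 0.202 CPM (SD, n = 2) in control and 80.9 ± 4.10 in DSF, a rise of 1.14 (log2, edgeR adjusted p = 5.13e-08), and rose by 1.37 in DSF+LPS against LPS. Cct6a was lower in both drug groups, so the divergent genes went in opposite directions under LPS. Mrpl18, a mitochondrial ribosome protein that starts beside Tcp1 with 141 bases of shared exon, fell from 85.2 ± 6.91 CPM to 49.7 ± 1.99 with DSF (-0.78 on the log2 scale, edgeR adjusted p = 4.75e-06) and by 0.71 in DSF+LPS against LPS. With LPS alone Mrpl18 changed by -0.26 (log2, edgeR adjusted p = 0.0407) where Tcp1 rose, a call lost with DESeq2 and without control 1, LPS 1 or LPS 2.

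At the other end of Tcp1, Acat3 shares 571 exon bases with it and went from 24.6 ± 0.376 CPM (SD, n = 2) in control to 6.23 ± 1.26 in DSF, a change of -1.98 (log2, edgeR adjusted p = 3.90e-08). Usp16, a deubiquitinase gene, overlaps the end of Cct8 by 192 exon bases and had calls in the directions of Cct8. It was at 64.0 ± 0.402 CPM in control, 80.8 ± 4.65 in LPS and 60.1 ± 4.72 in DSF+LPS, with 0.34 for LPS (edgeR adjusted p = 0.00692) and -0.43 for DSF+LPS against LPS (edgeR adjusted p = 0.000474). The LPS call was lost with library size alone and without control 1, control 2 or LPS 2, and how many reads the pair shares was not tested. Pradc1, which starts within Cct7, changed by -0.37 with LPS (log2, edgeR adjusted p = 0.0362) where Cct7 rose, a call lost in 5 of 10 alternatives. It was at 14.2 ± 1.50 CPM in LPS and 17.8 ± 0.536 in DSF+LPS, a change of 0.32 (log2, edgeR adjusted p = 0.0322). This call too was lost in 5 of 10 alternatives, and with DSF alone Pradc1 stood at -0.01 (edgeR adjusted p = 0.935). Fam173b beside Cct5 was at 12.5 to 14.3 CPM in group means and was called in no comparison. Tsacc beside Cct3 and B130034C11Rik beside Cct8 stayed under 5 CPM, and the 4 small nucleolar RNA genes within Cct6a and Tcp1 under 1 CPM. In DSF+LPS against LPS, Tsacc rose by 1.11 (log2, edgeR adjusted p = 0.0208) and B130034C11Rik by 0.82 (edgeR adjusted p = 0.0235). Each of these 2 calls was lost in 3 of 10 alternatives. B130034C11Rik also rose by 0.72 with DSF (edgeR adjusted p = 0.0377), a call lost in 6 of 10.

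**Figure D4:**
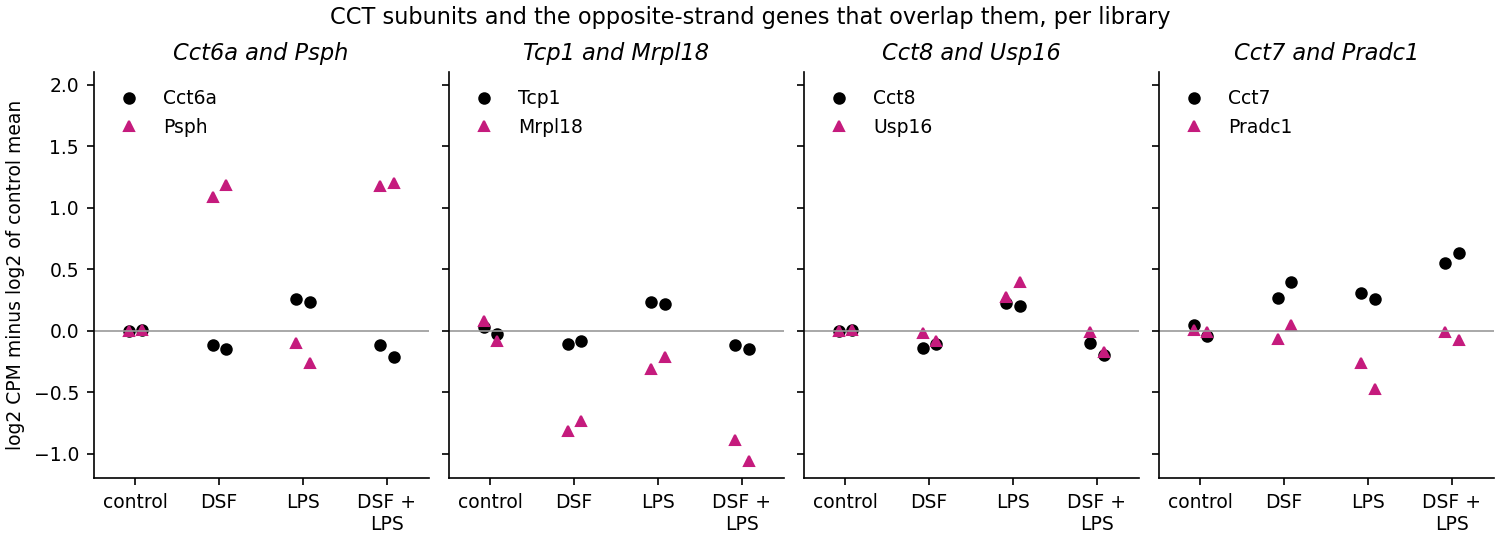
Log2 CPM of 4 subunits (circles) and of an overlapping gene on the opposite strand (triangles), each minus the log2 of its control mean (vertical axis), in the 4 groups; each point is 1 library. Psph rises above 1 with the drug while Cct6a falls below 0. Usp16 is above 0 in LPS as Cct8 is, and Mrpl18 and Pradc1 are below 0 in LPS where Tcp1 and Cct7 are above it.

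Among the 9 genes of prefoldin and the phosducin-like partners, 3 rose with LPS, where 15.2% of all genes did. None fell in edgeR, where 13.8% of all genes did, or in DESeq2, with 1, Pdcl, down at an unadjusted p under 0.05. Txndc9, a phosducin-like co-chaperone of CCT, rose by 0.45 (log2, edgeR adjusted p = 0.00189), the prefoldin subunit gene Pfdn4 by 0.41 (edgeR adjusted p = 0.00739) and Pfdn2 by 0.28 (edgeR adjusted p = 0.0160). The calls of Pfdn4 and Pfdn2 were lost with library size alone, the first also without control 2, LPS 1 or LPS 2, and the second without any 1 library. With DSF alone, Pfdn5 rose by 0.21 and Pfdn2 and Pdcl3 changed by -0.20 and -0.30. The Pfdn5 call was lost in 7 of 10 alternatives, that of Pfdn2 in 5 of 10, and that of Pdcl3 only without control 1. In DSF+LPS against LPS, 5 of the 9 fell and 1 rose, where 31.6% and 33.7% of all genes did. Of the 8 subunits 3 fell and 1 rose.

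Vbp1, which codes for the prefoldin subunit that also binds the VHL protein, had the largest fall of the partners. It was at 36.3 ± 0.273 CPM (SD, n = 2) in LPS and 16.7 ± 0.261 in DSF+LPS, a change of -1.12 (log2, SE 0.099, edgeR adjusted p = 1.63e-07). Its interaction was -0.90 (log2, SE 0.137, edgeR adjusted p = 0.000285), and both calls were kept in each alternative run. Pfdn4 changed by -0.65 in DSF+LPS against LPS, Txndc9 by -0.34, Pfdn2 by -0.25 and Pfdn1 by -0.24. The call of Pfdn2 was lost without LPS 1 and that of Pfdn1 in 8 of 10 alternatives. Pfdn5 rose by 0.46 (log2, edgeR adjusted p = 0.000162). Pfdn6 and Pdcl were called in no comparison. Against DSF, DSF+LPS gave 1 rise, Pfdn5 at 0.30, and 1 fall, Vbp1 at -0.71, where 5.53% and 6.53% of all genes rose and fell. The Pfdn5 call was lost with library size alone, with only the DSF and DSF+LPS libraries in the fit, and without DSF 1 or DSF+LPS 2.

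The tubulin cofactors complete the folding of tubulin after its release from CCT. Of the 6, 1 rose and 2 fell with DSF, where 31.0% and 27.1% of all genes did. With DSF, Tbce rose from 28.7 ± 1.33 to 51.8 ± 0.269 CPM (SD, n = 2), a change of 0.85 (log2, edgeR adjusted p = 1.49e-06). Tbcd changed by -0.60 (edgeR adjusted p = 4.15e-05) and Tbcc by -0.54 (edgeR adjusted p = 0.0133), a call lost without control 1 or DSF 2. LPS alone called none of the 6 in edgeR, where 15.2% of all genes rose and 13.8% fell, and none in DESeq2. At an unadjusted p under 0.05 in edgeR it gave 1 up, Tbce, and 1 down, Arl2. In DSF+LPS against LPS 2 rose and 2 fell, where 33.7% and 31.6% of all genes did. Tbce rose by 0.57 and Arl2, a small GTPase of the cofactor complex, by 0.34, while Tbca changed by -0.45 and Tbcd by -0.37. Tbca also fell against DSF, by 0.41 on the log2 scale, where 6.53% of all genes fell. The Arl2 call was lost without LPS 2. That of Tbca against DSF was lost with only the DSF and DSF+LPS libraries in the fit, and without DSF 1, DSF 2 or DSF+LPS 2. Tbcb was called in no comparison.

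The 4 genes related in sequence to the subunits are expressed far below them. Cct6b, known as a testis form of Cct6a, was under 1 CPM in every library, with 2 to 14 counts. Mkks, Bbs10 and Bbs12 code for chaperonin-like proteins that assist assembly of the BBSome, a ciliary transport complex, and their group means ran from 2.55 to 13.9 CPM. Bbs10 was at 4.57 ± 0.118 CPM (SD, n = 2) in control, 2.55 ± 0.151 in LPS and 6.82 ± 0.772 in DSF+LPS, with changes of -0.84 for LPS (edgeR adjusted p = 0.00693) and 1.42 for DSF+LPS against LPS (edgeR adjusted p = 2.68e-05). With DSF alone it rose by 0.55, a call lost in 6 of 10 alternatives. Bbs12 changed by -1.04 in DSF+LPS against LPS (edgeR adjusted p = 7.35e-05) and by -0.72 against DSF. The latter call was lost with only the DSF and DSF+LPS libraries in the fit, and without DSF 1. The LPS call of Bbs10 was lost without LPS 2. Mkks was called in no comparison.

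Of 25 known client genes of the chaperonin, 9 rose and 1 fell with LPS, where 15.2% and 13.8% of all genes did. Actg1, cytoplasmic gamma-actin, rose by 1.21 (log2, edgeR adjusted p = 1.20e-09), the transcription factor gene Stat3 by 0.99 and Tubb2b by 0.84, and the cyclin gene Ccne1 changed by -0.88. With DSF 6 rose and 14 fell, where 31.0% and 27.1% of all genes did. Tubb3 and Tubb2a, both beta-tubulins, rose by 3.10 and 1.48 and Actg1 by 0.84. The mitotic kinase gene Plk1 changed by -1.47, Ccne1 by -1.32 and the alpha-tubulin gene Tuba1b by -0.87. Tubb3 was at 0.268 ± 0.133 CPM (SD, n = 2) in control and 2.30 ± 0.691 in DSF, so its fold rests on few counts.

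In DSF+LPS against LPS, 4 clients rose and 15 fell, where 33.7% and 31.6% of all genes did. Tubb3 rose by 3.11, Tubb2a by 1.36 and Tubb2b by 0.54, and Plk1 changed by -1.87, Cdc20 by -0.85 and Actb by -0.78. Actb, beta-actin, was at 5503 ± 47.3 CPM (SD, n = 2) in LPS and 3211 ± 157 in DSF+LPS. The Tubb2b call was lost without LPS 2. In DSF+LPS against DSF, 12 rose and 1 fell, where 5.53% and 6.53% of all genes did, with Tubb2b at 0.59, Actg1 at 0.47, Tubb2a at 0.46 and Plk1 at -0.49. Of these 13 calls 2 were kept in each alternative run. Actin and tubulin genes have near-identical copies, and how reads that match several copies were counted is not given in the sources used here, so their split among copies is uncertain.

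The other cytosolic heat shock chaperones rose under the drug where most subunits did not. Of 20 tested on that list, 18 rose and none fell with DSF, where 31.0% and 27.1% of all genes did. Their median log2 fold change was 1.66, where all genes had a median of 0.05. Of the 8 subunits 2 rose, and the median of the 8 was -0.01. Hspa8, the constitutive Hsp70, rose by 1.83 (log2, edgeR adjusted p = 4.44e-11) and Hsp90ab1 by 0.64 (edgeR adjusted p = 5.13e-08). The mitochondrial chaperonin genes Hspd1 and Hspe1 rose by 0.53 and 0.77. Hsf1, the main heat shock factor, changed by -0.35 (edgeR adjusted p = 0.00412) and Hsf2 by 0.42 (edgeR adjusted p = 0.0896). In DSF+LPS against LPS 16 of the 20 rose and 1 fell, where 33.7% and 31.6% of all genes did. The median was 1.54 beside -0.08 for the subunits. With LPS alone 5 of the 20 rose, where 15.2% of all genes did, with a median of 0.01 beside 0.24 for the subunits.

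**Figure D5:**
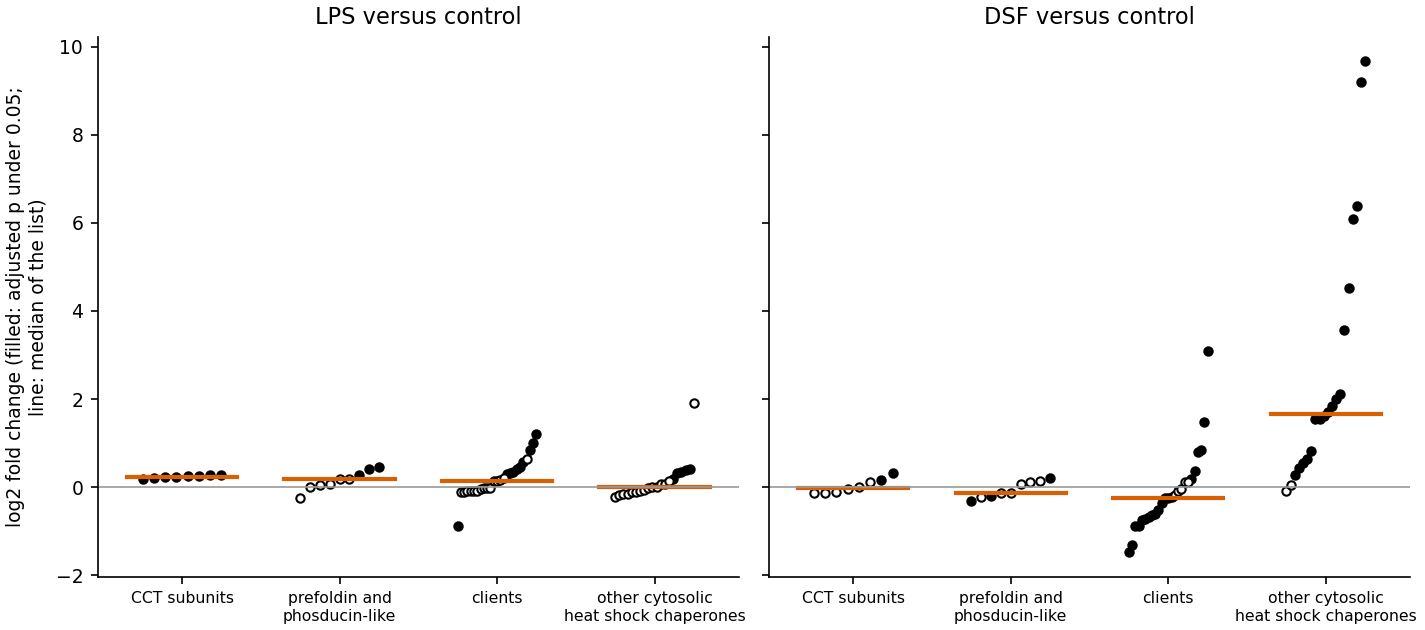
Log2 fold change (vertical axis) of each tested gene of 4 lists for LPS and for DSF against control; filled points have an adjusted p under 0.05 in edgeR and lines are list medians. The subunits cluster at 0.24 for LPS and around -0.01 for DSF, where the other cytosolic heat shock chaperones have a median of 1.66.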

How the data were processed

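RNA of 8 libraries was measured by mRNA-seq, after TRIzol extraction and a VAHTS library kit, per the labels' protocols. The authors deposited a table of raw read counts for genes. The submitters' processing notes name GRCm39 and DESeq2 without their role, while aligner, counter, strand setting and the rule for multi-mapping reads were not given in the sources used here. Of 55414 gene identifiers, 52081 matched a symbol. The counts were tested with edgeR 4.0.16 (R 4.3.3), by the quasi-likelihood test, in 1 fit of 8 libraries with a mean for each group, TMM scaling and filterByExpr at its defaults (counts of at least 10, totals of at least 15), and 16304 genes passed. P-values were adjusted by Benjamini-Hochberg over all of these, and a gene rose or fell (was called) where the adjusted p was under 0.05. SE is the log2 fold change over the square root of F. The fit was tested on simulated data.

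Lengths, overlaps and starts of neighbouring genes (within 1000 bases) came from GENCODE M21 on GRCm38, a build older than that of the counts. Sequences came from RefSeq. The 8 subunits and all lists were chosen with earlier results of these data known. The rule for named genes took all subunits, chaperonin-like genes, partners, cofactors and neighbours, the 3 largest rises and falls among called clients, 6 named chaperone genes and the 5 genes most like the family mean. Alternatives were RLE size factors, library size alone, no filter, the replicate number as a block, only the groups compared, DESeq2 1.42.0, leaving out each library, and other lengths. The length without retained introns was added after seeing the data. Coding length came from the annotation.

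Replicates of a group differed by more than sampling noise (chi-square per degree of freedom 3.88 in control, 7.07 in DSF, 4.28 in LPS and 13.3 in DSF+LPS), so none was counted as a repeat of another.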

Additional observations from a re-analysis of the deposited data

Results flagged for a closer look

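Each gene below is given because the drug changed its LPS response by the test of the interaction, with edgeR and an adjusted p under 0.05. Of all genes tested, 12.2% had such a negative interaction and 7.58% a positive one. Genes of the other heat shock chaperone and mitochondrial chaperonin lists are left out. Among the subunits, the interaction was -0.28 for Cct6a and -0.26 for Tcp1, both on the log2 scale. Among the partners it was -0.90 for Vbp1, -0.52 for Pfdn4 and -0.45 for Txndc9. Among the tubulin cofactors it was -0.61 for Tbca, whose LPS response was 0.20 without the drug and -0.41 with it. Bbs10 had 0.87, from a change of -0.84 with LPS alone to 0.03 with LPS after the drug, and Bbs12 had -0.80. Of the 25 clients, 2 had a positive interaction, Ccne1 at 0.81 and Tubb5 at 0.30. Another 2 had a negative one, Actg1 at -0.74 and Stat3 at -0.70. The neighbour gene Usp16 had -0.38. With 1 library left out at a time, the calls of Cct6a, Tcp1, Pfdn4, Txndc9, Tbca, Bbs10 and Bbs12 were each lost at least once. So were those of Ccne1, Tubb5 and Usp16, whereas those of Vbp1, Actg1 and Stat3 were not.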

How the results depend on the processing

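Of 19 calls of subunits over the 5 comparisons, 5 were kept in every alternative run (Cct7 with DSF, and Cct7, Tcp1, Cct6a and Cct8 in DSF+LPS against LPS), 14 were lost in at least 1 and 0 changed direction. Library size alone left 0 subunits up for LPS, 1 up and 3 down for DSF, 0 up for DSF+LPS against DSF and 0 down for the interaction. In DSF+LPS against LPS it also called Cct2 down, at -0.14 (log2, edgeR adjusted p = 0.0329). Over all genes it moved the calls from 2485 up and 2246 down to 1614 and 3774 for LPS, and from 901 and 1065 to 464 and 2190 for DSF+LPS against DSF. No filter gave 1 up and 2 down for DSF and 0 for the interaction, and RLE size factors gave 0 for the interaction. With only the groups compared, DSF+LPS against DSF gave 0 subunits and 324 up and 200 down over all genes; without DSF 1 these were 250 and 149. Leaving out 1 library gave 1 to 6 subunits up for LPS, 1 to 1 up for DSF, 0 to 3 up for DSF+LPS against DSF and 0 to 3 down for the interaction; the cause was not tested.

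Some uncalled values changed sign. Cct4 in DSF+LPS against LPS was 0.0157 with RLE size factors, 0.0157 with DESeq2 and 0.0272 with only the groups compared. The Cct7 interaction was 0.000601 with RLE size factors, 0.000599 with DESeq2, 0.0339 with library size alone and 0.00535 without the filter. Library size alone gave -0.0885 for Cct3 with DSF, -0.0416 for Cct5 in DSF+LPS against LPS, and -0.0603 for Cct2 and -0.0452 for Cct4 in DSF+LPS against DSF. No filter gave -0.0218 for Cct3 and -0.00267 for Cct5. With 1 library left out, Cct3 with DSF ran from -0.0454 to 0.0206, DSF+LPS against LPS from -0.0498 to 0.0274 for Cct4 and -0.0564 to 0.0534 for Cct5, the interaction from -0.0166 to 0.107 for Cct5 and -0.0633 to 0.0780 for Cct7, and DSF+LPS against DSF from -0.0868 to 0.0424 for Cct6a, -0.0817 to 0.0537 for Cct8 and -0.0562 to 0.00435 for Tcp1.

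The ratio of the highest to the lowest level per length was 2.95 in control, 2.97 in DSF, 2.89 in LPS and 2.72 in DSF+LPS with merged exons. In the same order it was 2.50, 2.13, 2.35 and 2.56 with the longest transcript, 1.54, 1.44, 1.49 and 1.66 with coding length, and 2.08, 1.82, 2.01 and 2.04 with the longest transcript that is not a retained intron.

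The deviations of same-numbered libraries of different groups had r from -0.17 to 0.12, so the numbers are not taken as pairs. With the replicate number as a block, the pairing changed no count of subunits: 8 rose with LPS, 2 rose with DSF, 3 fell and 1 rose in DSF+LPS against LPS, 3 rose against DSF and 2 had a negative interaction. Where 1 library was left in a group, it was assumed to vary like the other groups.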
